A study of Homo sapiens with 6 samples.

Results

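TEM4-18 is a line of prostate cancer cells derived from PC-3 by transendothelial migration, in which tumour cells pass through a sheet of endothelial cells from the small vessels of human lung, and it was compared here with its parent. The comparison uses the 2 arrays of TEM4-18 and the 2 arrays of PC-3, 4 of the 6 arrays of the study. The other 2 arrays hold TEM2-5, a line isolated from PC-3 in a separate crossing experiment. TEM2-5 is not part of the contrast, and it shows where TEM4-18 differed from it. Its arrays did enter the fit, so they helped to set the spread behind the p-values. They also entered the filter on low signals and the choice of each gene's probe set. PC-3 is an established line grown from a bone metastasis. Each TEM line is 1 isolate, so effects of isolating a subline and of crossing the endothelial layer cannot be told apart. All lines were grown in DMEM/F12 medium with 10% FBS, and no treatment or engineered allele is given in the labels. Total RNA was hybridised to an oligonucleotide expression array, and the values are linear signals in array units. A gene is represented by the brightest of its probe sets, the groups of short probes that are read together as 1 signal.

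The labels number the arrays of a line as replicates 1 and 2 and do not say that these came from separate cultures. The p-values thus rest on the spread between arrays of a line, and that spread may be technical. A check of RNA quality is recorded in the labels for both PC-3 arrays and for TEM4-18 array 1, not for TEM4-18 array 2. Across the 6 arrays ACTB probe sets at the 3' end gave 1.144 to 1.219 times the signal of those at the 5' end, and GAPDH 0.923 to 0.986 times. Across tested probe sets, log2 signals correlated at 0.976 between the PC-3 arrays, at 0.979 between the TEM4-18 arrays and at 0.923 to 0.925 between arrays of the 2 lines (probe sets share arrays and are not independent replicates). The number of arrays, not a read depth, limits the precision.

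PC-3 cells lack alpha-catenin, the protein that ties E-cadherin to actin. Its gene CTNNA1 was at 263 and 195 on the PC-3 arrays, whose medians were 317 and 282. On the TEM4-18 arrays it was at 338 and 283, with medians of 296 and 267. CTNNA1 was 1 of 2 tested genes expected to be low in PC-3, and neither was called. The summed signal of the 2 was 1564 and 965 on the PC-3 arrays and 1481 and 1513 on the TEM4-18 arrays. Most of it came from the other gene, which lay above the array median on all 4 arrays and was thus not low, against the expectation. KRT8 and KRT18, the keratin pair of simple epithelia, were present on all 4 arrays, with no TEM4-18 signal below 6062. Because TEM4-18 cells had passed through an endothelial layer, 22 endothelial markers were checked. Their summed signal was 5143 and 5138 on the PC-3 arrays and 7310 and 5682 on the TEM4-18 arrays. Only 9 of the 22 passed the filter on low signals, and the defining markers CDH5, VWF, TEK and TIE1 did not. Of the 9, 3 were higher in TEM4-18 and 0 lower. These were KDR, the main VEGF receptor (306 and 146 in PC-3 and 1869.98 and 975 in TEM4-18), ESAM, a junction adhesion molecule (267 and 291 in PC-3 and 815 and 827 in TEM4-18), and ROBO4, an endothelial guidance receptor (447 and 648 in PC-3 and 869 and 989.5 in TEM4-18). ROBO4 was not called when PC-3 array 1 or either TEM4-18 array was left out (adjusted p = 0.172, 0.067 and 0.149). The other 6 tested markers were not called. Of 8 tested fibroblast markers 1 rose, COL1A1, and 2 fell, LUM and PDGFRA. Of 6 leukocyte markers 0 rose and 1 fell, LCP1, an actin bundler (10914 and 12107 in PC-3 and 6547 and 7690.1 in TEM4-18).

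In the epithelial-mesenchymal transition, epithelial cells lose the junctions that hold them to each other and to the basement membrane and take on the shape, matrix and motility of mesenchymal cells. Transcriptional repressors such as ZEB1 bind E-boxes, short sequences in the promoters of epithelial genes, while factors of the GRHL, OVOL and ETS families and the splicing regulators ESRP1 and ESRP2 keep the epithelial state. Tumour cells that leave the circulation must pass between or through endothelial cells, and adhesion molecules, proteases and chemokine receptors take part in that step.

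Genes were compared with a linear model (limma) on log2(signal + 51.8), where 51.8 is the 20th percentile of all signals, and a gene was called where its p-value, adjusted by the Benjamini-Hochberg method over all tested probe sets, was below 0.05. Of 13558 tested genes, 3987 (29.4%) were called: 1806 (13.3%) were higher in TEM4-18 and 2181 (16.1%) lower. The falls were larger than the rises. At least 2-fold changes numbered 791 lower genes (5.83%) and 390 higher genes (2.88%), and the median log2 fold change over all tested genes was -0.04. The count of called genes was 2370 when the variance was not allowed to depend on signal level. The counts of every gene group below are to be read against these shares, since calls were common throughout. The groups were chosen with earlier results of these data known, so a count above these shares describes a group and does not test it.

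**Figure D1:**
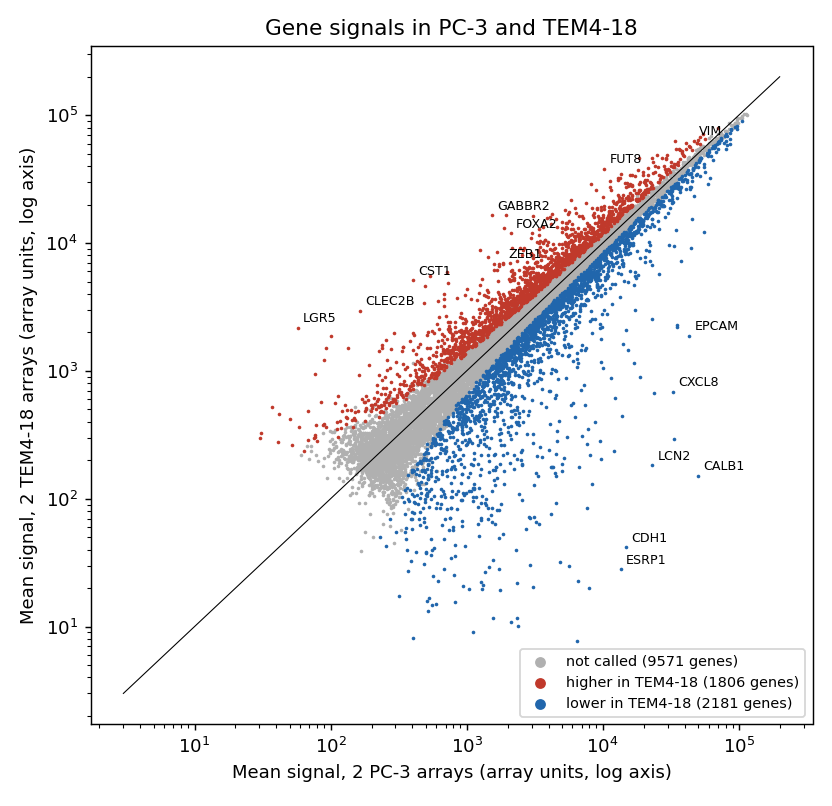
Mean signal of each of the 13558 tested genes in PC-3 (horizontal axis) and TEM4-18 (vertical axis), in array units on log axes, with each point a gene coloured by its call and the line marking equal signals. The 2181 lower genes reach much farther from the line than the 1806 higher genes, and CDH1, ESRP1 and CALB1 lie at its far lower edge.

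Promoter sequences were examined for the E-box CAGGTG, which reads CACCTG on the other strand and is the form that ZEB1 binds. The window ran from 250 bases before to 50 bases after the start of a gene, and RefSeq promoters (build GRCh38.p14) were matched by symbol for 10958 of the 13558 tested genes. The motif stood in 18.6% of these windows. It stood in 28.0% of 608 windows of genes at least 2-fold lower in TEM4-18 and in 34.9% of 235 windows of genes at least 4-fold lower. Among genes at least 2-fold higher the share was 13.8% of 312, and among genes not called it was 18.7% of 7698. Windows with 2 or more copies made up 11.9% of the genes at least 4-fold lower, 0.962% of the genes at least 2-fold higher and 2.53% of the genes not called.

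Other E-boxes did not follow this order. CACGTG stood in 7.23% of windows of genes at least 4-fold lower, 8.65% of those at least 2-fold higher and 10.1% of those not called, and CAGCTG in 15.3%, 17.6% and 17.4%. The median GC content was 62.0% in the windows of genes at least 4-fold lower and 67.3% in those at least 2-fold higher. Among 27305 promoters of the whole table, 20.6% held CAGGTG or CACCTG. A match is a string of letters, not a measured binding site.

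**Figure D2:**
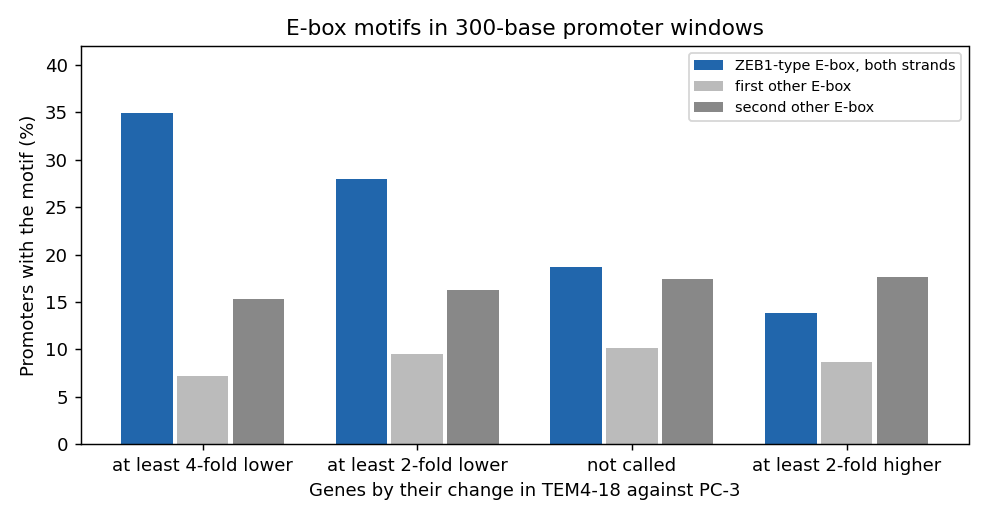
Share of 300-base promoter windows (vertical axis, percent) that hold CAGGTG or CACCTG (ZEB1-type E-box), CACGTG (first other E-box) or CAGCTG (second other E-box), for 4 groups of genes set by their change in TEM4-18. The ZEB1-type bar falls from 34.9% in genes at least 4-fold lower to 13.8% in genes at least 2-fold higher, and the other bars have no such order.

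Some junction and trafficking genes with large falls held copies of it. The 250 bases before the start are printed for 4 such genes, because they show promoters of genes with large falls that hold from 1 to 5 copies of the motif. They are CRB3 (chr19:6464021-6464270, plus strand), AP1M2 (chr19:10587313-10587562, minus strand), RAB25 (chr1:156060910-156061159, plus strand) and OCLN (chr5:69492297-69492546, plus strand). Each is written 5′ to 3′ in gene direction from RefSeq, build GRCh38.p14, and capitals mark CAGGTG or CACCTG.
CRB3: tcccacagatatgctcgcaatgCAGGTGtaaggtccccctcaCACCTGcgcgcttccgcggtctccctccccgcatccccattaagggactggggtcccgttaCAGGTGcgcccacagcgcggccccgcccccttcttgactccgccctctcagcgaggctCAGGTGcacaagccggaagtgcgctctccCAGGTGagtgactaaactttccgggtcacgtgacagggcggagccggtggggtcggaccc
AP1M2: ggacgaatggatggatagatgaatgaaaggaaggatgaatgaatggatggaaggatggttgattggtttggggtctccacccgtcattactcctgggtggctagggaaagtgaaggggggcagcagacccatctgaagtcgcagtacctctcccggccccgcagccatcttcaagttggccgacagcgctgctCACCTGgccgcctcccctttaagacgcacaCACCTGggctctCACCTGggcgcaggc
RAB25: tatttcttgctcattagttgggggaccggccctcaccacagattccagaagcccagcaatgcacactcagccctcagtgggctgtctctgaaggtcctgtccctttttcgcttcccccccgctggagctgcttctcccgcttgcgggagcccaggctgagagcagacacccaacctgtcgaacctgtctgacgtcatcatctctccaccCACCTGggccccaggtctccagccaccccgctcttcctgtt
OCLN: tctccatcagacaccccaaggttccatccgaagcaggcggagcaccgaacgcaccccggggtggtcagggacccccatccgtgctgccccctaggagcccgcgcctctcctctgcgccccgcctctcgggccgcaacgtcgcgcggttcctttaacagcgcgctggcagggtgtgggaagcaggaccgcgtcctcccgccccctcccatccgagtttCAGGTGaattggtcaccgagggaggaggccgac
CRB3 held 5 copies and AP1M2 held 3, while RAB25 and OCLN held 1 each. The copy nearest to the start began 15 bases before it in AP1M2, 33 in OCLN, 41 in RAB25 and 60 in CRB3. Most windows of genes at least 2-fold higher, and most of all tested windows, held 0 copies, so 1 such sequence is only an example. GNG2, in a chromosome 14 stretch of mostly higher genes described further on, rose from 1978 and 1806 to 13623 and 12580.5. Its sequence, which held 0 copies, is printed here (chr14:51825924-51826173, plus strand).
GNG2: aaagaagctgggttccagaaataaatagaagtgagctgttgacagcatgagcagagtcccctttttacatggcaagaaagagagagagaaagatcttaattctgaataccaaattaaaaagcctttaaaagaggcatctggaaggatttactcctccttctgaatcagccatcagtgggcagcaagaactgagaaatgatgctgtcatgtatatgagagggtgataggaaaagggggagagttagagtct
Among the trafficking and polarity genes called lower, 9 of the 13 with a matched promoter held the motif, and among the lower tight junction genes 5 of 14. In other lists it stood in 2 of 19 matched interferon-stimulated genes called lower (10.5%, against 18.6% of all tested windows) and in 0 of 3 collagen and matrix genes called lower. Of 12 matched collagen and matrix genes called higher, 0 held it. LSR and EHF, which fell by 4.91 and 6.82 on the log2 scale, held 0 copies in these 250 bases.

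Transcription factors that specify epithelia were mostly lower in TEM4-18. Of the 17 tested, 11 fell and 3 rose, with a median log2 fold change of -0.93 against -0.04 for all genes. EHF, an ETS factor of glandular epithelia, fell from 8269 and 7560.5 to 33.4 and 6.38 (log2 fold change -6.82 ± 0.21, SE, limma adjusted p = 1.26e-08). GRHL2, which drives junction genes directly, was at 4825 and 5285 on the PC-3 arrays and 236 and 136 on the TEM4-18 arrays (-4.46 ± 0.20, adjusted p = 1.96e-07). OVOL2, a repressor of ZEB1, was at 4530.4 and 4103 on the PC-3 arrays and 156 and 196 on the TEM4-18 arrays (-4.26 ± 0.17, adjusted p = 8.07e-08). For all 3, both TEM4-18 arrays lay more than 10-fold below either PC-3 array.

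The relatives of these factors fell less. OVOL1 stood at 2521 and 2306 on the PC-3 arrays and 516 and 414 on the TEM4-18 arrays, GRHL1 at 2546 and 2130.1 on the PC-3 arrays and 555 and 489 on the TEM4-18 arrays and ELF3, another epithelial ETS factor, at 2464 and 2297 on the PC-3 arrays and 383 and 421 on the TEM4-18 arrays. FOXA1, a pioneer factor of prostate epithelium, fell by 2.05 on the log2 scale. Its TEM4-18 arrays differed, at 1291 and 458, and without TEM4-18 array 2 it was not called (adjusted p = 0.0511). KLF4 and KLF5, zinc-finger factors of epithelial differentiation, fell by 0.89 and 0.90 on the log2 scale. SPDEF, a factor of secretory epithelium, was not called (5771 and 5273 in PC-3 and 5181 and 4467 in TEM4-18). ETV4, an ETS factor related to ETV5, was the brightest member not called (4397 and 5418 in PC-3 and 6462 and 5720.1 in TEM4-18), though it was called higher without PC-3 array 2 (0.46, adjusted p = 0.0281).

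Against this direction, FOXA2, a forkhead factor of endoderm and of neuroendocrine prostate cells, rose from 2255 and 1959.9 to 11709 and 12163 (2.48 ± 0.10, adjusted p = 7.11e-08). ETV5, an ETS factor induced by growth factor signalling, rose from 3172 and 2582 to 6163 and 6730.1, and TFAP2C rose from 5510.2 and 6867 to 9959.9 and 9532. TFAP2A, its relative, fell from 5062 and 7064 to 2640.1 and 3031, so members of 1 family moved apart.

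Among 8 tested transcription factors that promote the transition, 4 rose and 1 fell. ZEB1 and TWIST2 rose most. ZEB1 stood at 1859 and 1824 on the PC-3 arrays and 6866 and 7074 on the TEM4-18 arrays (1.89 ± 0.10, adjusted p = 4.08e-07). TWIST2, a basic helix-loop-helix repressor, stood at 549.5 and 493 on the PC-3 arrays and 1869 and 2192 on the TEM4-18 arrays (1.86 ± 0.15, adjusted p = 1.26e-05). TWIST1 and TCF4 were already well expressed in PC-3 and rose by 0.62 and 0.48 on the log2 scale. SNAI2, the zinc-finger repressor also called Slug, was not called, at 4783 and 5670.00 on the PC-3 arrays and 4591 and 6641 on the TEM4-18 arrays, and its array ranges overlapped. ZEB2, a relative of ZEB1, did not pass the filter at any of its probe sets, and ESRP2 had none that names it alone. FOXQ1, a forkhead factor that can promote the transition in epithelial tumours, fell from 1724 and 1559 to 131 and 226.

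**Figure D3:**
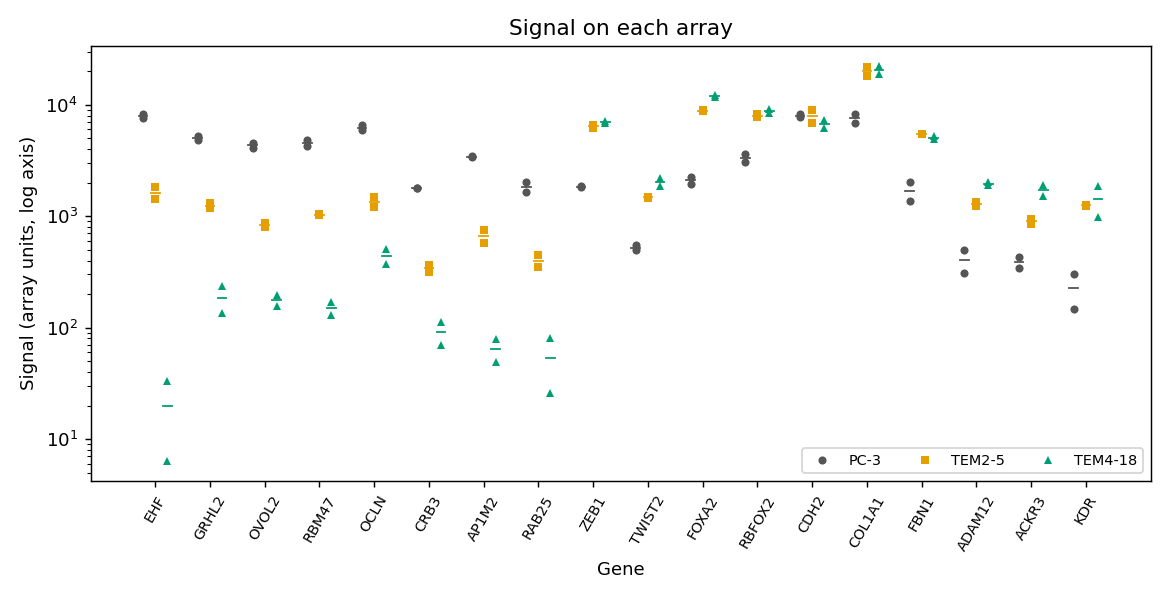
Signal of 18 genes (horizontal axis) on each array (vertical axis, array units, log scale), with a point per array and a short bar at the mean of the 2 arrays of a line. The 8 epithelial genes on the left step down from PC-3 to TEM4-18 with TEM2-5 between them, CDH2 lies close in both lines and was not called, and the genes from ZEB1 to RBFOX2 and from COL1A1 to KDR are higher in TEM4-18 than in PC-3.

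Of 18 tested splicing regulators, 7 rose and 3 fell. RBM47, an epithelial RNA-binding protein, fell from 4865 and 4278 to 171 and 129 (-4.52 ± 0.17, adjusted p = 6.21e-08), in the company of ESRP1, whose signal on the TEM4-18 arrays was 21.95 and 34.3. MBNL3 fell by 1.71 while its relative MBNL1 rose by 0.42 on the log2 scale. RBFOX2, which promotes mesenchymal exon choices, rose from 3614 and 3066 to 9072 and 8506 (1.39 ± 0.10, adjusted p = 5.76e-06). NOVA1, PTBP2 and RBM24, regulators best known from neurons and muscle, rose by 1.20, 0.82 and 0.87 on the log2 scale. The 8 not called included the general splicing factors HNRNPM (27759 and 27236 in PC-3 and 25984 and 25802 in TEM4-18) and PTBP1 (20221 and 20869 in PC-3 and 21346 and 21602 in TEM4-18). SRSF1, the brightest of them, was at 30803 and 29209 in PC-3 and 27618 and 29181 in TEM4-18.

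The fall of E-cadherin had no matching rise of N-cadherin. CDH1, the E-cadherin gene, was at 25.7 and 57.8 on the TEM4-18 arrays, below the added 51.8 on 1 of them. CDH3, the P-cadherin of basal prostate cells, fell with it, from 6809 and 6358 to 19.2 and 26.1 (-6.48 ± 0.19, adjusted p = 9.43e-09). CDH2, the N-cadherin gene, was present in PC-3 and was not higher in TEM4-18: it stood at 7685 and 8187 on the PC-3 arrays and 6162 and 7294 on the TEM4-18 arrays (log2 fold change -0.24 ± 0.13, adjusted p = 0.217). CDH11, a cadherin of mesenchyme and bone, was bright in both lines, at 31431 and 27793 on the PC-3 arrays and 30280.3 and 31744 on the TEM4-18 arrays, and was not called. With all its probe sets averaged it was called higher (0.62, adjusted p = 3.63e-04). VIM, the intermediate filament protein of mesenchymal cells, was abundant in PC-3 and rose by 0.44 on the log2 scale, from 45941 and 47129 to 62503 and 63489.5.

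Of 16 adherens junction genes tested, 5 fell and 3 rose. Beyond the cadherins, PLEKHA7, which links the junction to microtubules, fell from 1235 and 1043 to 448 and 366, and AFDN, the nectin anchor afadin, fell from 3222 and 4142 to 2054 and 2179. CTNNBIP1, an inhibitor of beta-catenin, rose from 1403 and 1309 to 3516 and 3005 (1.23 ± 0.13, adjusted p = 6.19e-05). CTNNB1, the beta-catenin gene, was not called (11458 and 10367 in PC-3 and 11709.6 and 11486 in TEM4-18).

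Tight junctions are the seal of epithelial sheets. Of 24 tested genes, 17 fell and 1 rose, with a median log2 fold change of -1.54. OCLN, the strand protein occludin, was at 6518 and 5942 on the PC-3 arrays and 507 and 369.9 on the TEM4-18 arrays (-3.69 ± 0.17, adjusted p = 2.04e-07). CLDN7, a claudin of simple epithelia, was at 6792 and 7405 on the PC-3 arrays and 477 and 145 on the TEM4-18 arrays (-4.47 ± 0.35, adjusted p = 7.77e-06). LSR, which builds the junction where 3 cells meet, was at 6965 and 6321 on the PC-3 arrays and 227 and 127 on the TEM4-18 arrays, and its relative ILDR1 at 986 and 962 on the PC-3 arrays and 52.5 and 32.9 on the TEM4-18 arrays. For these 4 genes both TEM4-18 arrays lay more than 10-fold below either PC-3 array.

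The falls of other members differed in size. CXADR, the receptor of coxsackie and adenoviruses, fell by 3.58, the cytoplasmic plaque protein CGN (cingulin) by 2.93 and the scaffold PATJ by 2.25 on the log2 scale. CLDN1 and CLDN11 fell by 1.66 and 1.48 and CLDN4 by 0.84. TJP1, the scaffold ZO-1, fell only by 0.45, from 15176 and 16111 to 11455 and 11439, whereas its epithelial relative TJP3 fell by 1.60. CLDN3 was not called (4336 and 3073 in PC-3 and 3531 and 2507 in TEM4-18), and neither was the scaffold MPDZ.

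CRB3, the apical determinant whose promoter carried 5 copies of CAGGTG or CACCTG, fell from 1806 and 1780.4 to 69.2 and 112 (-3.71 ± 0.26, adjusted p = 3.75e-06). PALS1, the scaffold that binds CRB3 and PATJ, was the list's only gene called higher, from 11252 and 11688 to 25132 and 26788 (1.17 ± 0.07, adjusted p = 1.27e-06). PALS1 lies in a stretch of chromosome 14 where most neighbours were higher as well, described further on.

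Desmosomes, which couple keratin filaments between cells, had 7 of 12 tested genes lower and 2 higher. DSP, the plaque protein desmoplakin, fell from 17593 and 17193 to 3097 and 2947 (-2.51 ± 0.09, adjusted p = 3.05e-08). JUP, plakoglobin, fell from 6180.02 and 6811 to 1186 and 961, and PPL, periplakin, from 1454 and 1568 to 297 and 305. The plakophilins split: PKP3 fell by 1.34, while PKP1 rose by 0.71 on the log2 scale (0.30 with all its probe sets averaged, not called). Among the desmosomal cadherins DSC3 rose from 1237 and 1006 to 2486 and 2160.4, DSG2 fell by 0.52 and DSC2 was not called. PKP4, the brightest member not called, was at 3928 and 3819 in PC-3 and 3754 and 3796 in TEM4-18.

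Of 8 tested keratins in the list, 6 fell and 0 rose. KRT75, a keratin outside the list, rose from 1802 and 2038 to 4129.8 and 3122 (0.89 ± 0.16, adjusted p = 0.00218). KRT7 fell from 39692 and 49494 to 7286 and 11038 and KRT8 from 23433 and 22688 to 7379 and 6062. KRT4 and KRT15, keratins of stratified and basal epithelium, fell by 2.14 and 2.10 on the log2 scale. KRT18, the partner of KRT8, fell by 1.02 on the log2 scale and was still at 29511 and 28959.7 in TEM4-18. KRT10 was not called (15320.4 and 15105 in PC-3 and 15600.5 and 15816 in TEM4-18).

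Genes of epithelial trafficking and polarity moved in 1 direction: 19 of 22 tested fell and 0 rose, with a median log2 fold change of -1.48. AP1M2, the adaptor subunit that sorts cargo to the basolateral membrane, fell from 3419 and 3432 to 78.5 and 49.1 (-4.92 ± 0.22, adjusted p = 1.80e-07). RAB25, a small GTPase of apical recycling, fell from 1645 and 2042 to 80.8 and 25.7 (-4.22 ± 0.31, adjusted p = 5.73e-06). MYO5B, the motor that carries recycling vesicles, fell from 4248 and 4740.3 to 1004 and 1036. Their TEM4-18 arrays lay far below both PC-3 arrays in each case.

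The falls of other members ranged widely. EPN3, an epsin of endocytosis, fell by 3.37, the non-muscle myosin heavy chain MYH14 by 2.98 and LLGL2, a basolateral polarity protein, by 1.36 on the log2 scale. SYTL2, an exocytosis effector, fell by 1.12, MAL2, a lipid raft protein of transcytosis, by 0.92 and the vesicle SNARE VAMP8 by 0.75. The 3 members not called were SYTL1, MYO1D and MYO5C, a motor close to MYO5B, at 4034 and 4054 on the PC-3 arrays and 3778 and 3758 on the TEM4-18 arrays.

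**Figure D4:**
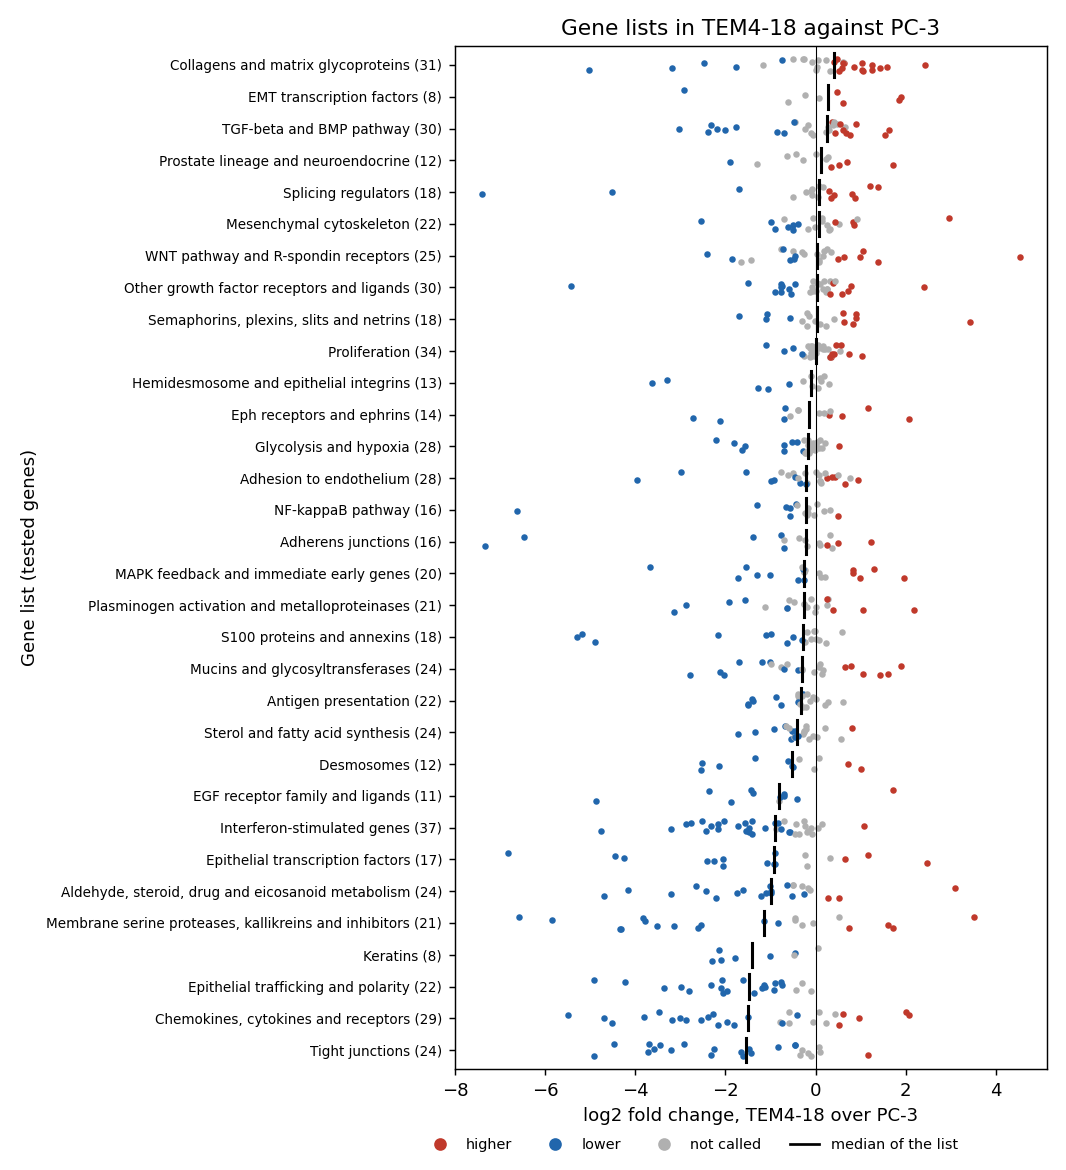
log2 fold change of TEM4-18 over PC-3 (horizontal axis) for each tested gene of 32 gene lists (vertical axis, tested genes in brackets), with each point a gene coloured by its call and a black bar at the list's median. Tight junction genes have the lowest median, -1.54, and collagens and matrix glycoproteins the highest, 0.42, and most lists hold genes called in both directions.

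Attachment to the basement membrane changed in a few parts. Of 13 tested genes of hemidesmosomes and epithelial integrins, 5 fell and 0 rose. Hemidesmosomes are anchored by the integrin subunits ITGA6 and ITGB4 together with plectin and the linker DST. ITGB4 fell from 6876 and 7859 to 522 and 559 (-3.64 ± 0.20, adjusted p = 6.90e-07), while its partner ITGA6 was not called (19888 and 16838 in PC-3 and 19908 and 19233 in TEM4-18), nor were DST and ITGA3. ITGB1, the beta chain shared by most of these integrins, was bright and not called (66489 and 65234 in PC-3 and 65451 and 60408 in TEM4-18). ITGB8, which with ITGAV activates latent TGF-beta, fell from 6408 and 5272 to 592 and 495, and ITGAV from 6834 and 7020.4 to 3313 and 3313. LAMB3, a chain of laminin-332, fell by 1.27 on the log2 scale.

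Matrix genes went the other way. Of 31 tested collagens and matrix glycoproteins, 15 rose and 5 fell, with a median of 0.42. COL1A1, the main chain of fibrillar type I collagen, rose from 6869 and 8299 to 18862 and 22388 (1.44 ± 0.12, adjusted p = 1.50e-05). FBN1, which forms microfibrils, rose from 1365 and 2017 to 4883 and 5232 (1.58 ± 0.16, adjusted p = 4.37e-05). All 3 type VI collagen chains rose, COL6A1 by 0.52, COL6A2 by 0.59 and COL6A3 by 1.25 on the log2 scale. COL6A1 rose by 0.33 without PC-3 array 1 and was not called without the signal-dependent variance (adjusted p = 0.0886), and COL6A2 was not called with all its probe sets averaged (0.22, adjusted p = 0.126). LOXL2, which cross-links collagen, rose from 8733 and 9378 to 18829 and 18952.

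SPARC, a collagen-binding matricellular protein, rose from 159.9 and 9.46 to 711 and 434, with PC-3 signals that differed widely, and it was not called without TEM4-18 array 1 (adjusted p = 0.0817). Without PC-3 array 2 its rise was 1.52 in place of 2.42. CCN2, the connective tissue growth factor, rose by 1.04 on the log2 scale. FN1, fibronectin, was high in both lines and not called (19990.00 and 21035 in PC-3 and 23173 and 19650.4 in TEM4-18). The same held for TNC, tenascin C (7192 and 7681 in PC-3 and 7587 and 7560.02 in TEM4-18).

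THBS1, an inhibitor of angiogenesis that also activates TGF-beta, was the group's largest fall, from 21229 and 26727 to 661 and 682 (-5.04 ± 0.15, adjusted p = 1.12e-08). VCAN, the proteoglycan versican, fell from 3780.2 and 4444 to 631 and 772, COL4A6 by 1.76 and COL5A2 by 0.74 on the log2 scale. LUM, the small proteoglycan lumican, fell from 473 and 759.6 to 2.95 and 42.3. CCN1, a relative of CCN2, was the brightest member not called (24955 and 26676 in PC-3 and 19877 and 23576 in TEM4-18), though it was called lower without TEM4-18 array 2 (-0.38, adjusted p = 0.0163).

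Molecules used to adhere to endothelium did not rise as a group. Of 28 tested, 8 fell and 5 rose. CD24, a ligand of P-selectin, fell from 34919 and 35215 to 2363 and 2045 (-3.96 ± 0.09, adjusted p = 1.06e-09). L1CAM, a neural adhesion molecule, fell from 831 and 1079 to 10.9 and 201 (-2.99, and -1.98 without TEM4-18 array 1), and ITGB2, the leukocyte integrin chain, by 0.99 on the log2 scale. CEACAM6, an epithelial adhesion molecule of the CEA family, fell from 964 and 476 to 244 and 159, but was not called without PC-3 array 1 or TEM4-18 array 2 (adjusted p = 0.132 and 0.0817). ICAM1 rose from 1064 and 1094 to 2127 and 2142 and ITGA5, the fibronectin receptor chain, from 1155 and 1304 to 1977 and 1925. CD44, the hyaluronan receptor, rose by 0.43 at its brightest probe set, was not called without the signal-dependent variance (adjusted p = 0.0699) and fell with all its probe sets averaged (-0.68, adjusted p = 6.15e-04). In the same list ALCAM and CD9, both bright in the 2 lines, were not called.

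Enzymes that build glycans on cell surface proteins changed in both directions. Of 24 tested mucins and glycosyltransferases, 6 rose and 8 fell. FUT8, which adds core fucose to N-glycans, rose from 10497 and 9969 to 37424 and 38785 (1.89 ± 0.07, adjusted p = 3.51e-08). MGAT5, which branches N-glycans, rose from 6974 and 5726 to 18162 and 16104, and B3GNT5, which starts lacto-series glycolipids, from 5995 and 5357 to 18786 and 15968. FUT3, a fucosyltransferase of Lewis antigens, fell by 2.04 and ST3GAL4, a sialyltransferase of selectin ligands, by 1.01 on the log2 scale. ST6GALNAC5, a sialyltransferase that acts on gangliosides, fell from 986 and 1262 to 101 and 138. GALNT6, which starts mucin-type O-glycans, was not called (2743 and 2466 in PC-3 and 2813 and 2639.5 in TEM4-18). MUC1, an epithelial mucin, fell from 1501 and 1196 to 248.6 and 287.

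The contractile and mesenchymal cytoskeleton was not raised as a group. Of 22 tested genes, 7 fell and 4 rose. TAGLN, the smooth muscle protein transgelin, fell from 609 and 920.1 to 86.6 and 82.8 while TAGLN3, its neuronal relative, rose from 803 and 635 to 6775 and 5169 (2.96 ± 0.18, adjusted p = 1.39e-06). TPM1 fell by 0.90 and the caveolins CAV1 and CAV2 by 0.51 and 1.00 on the log2 scale. ACTA2, CALD1 and FSCN1 were not called. Nor was MSN, the membrane-actin linker moesin (29173 and 29382 in PC-3 and 34323 and 30748 in TEM4-18).

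Epithelial serine proteases and their inhibitors were mostly lower. Of 21 tested, 12 fell and 4 rose. ST14, the membrane protease matriptase, fell from 6527 and 8716 to 49.2 and 119.7 (-5.85 ± 0.27, adjusted p = 1.96e-07), and its inhibitor SPINT1 fell with it, from 6591 and 7902 to 887 and 672. PRSS8, the protease prostasin that works with matriptase, fell by 2.61 and the kallikreins KLK5 and KLK6 by 4.33 and 3.53 on the log2 scale. PI3, the elastase inhibitor elafin, fell from 31743 and 34646 to 288 and 299 (-6.59 ± 0.10, adjusted p = 2.22e-10), SLPI from 9127 and 8349 to 530.4 and 267 and SERPINB5, maspin, from 17808 and 15979 to 1359 and 951.

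The rises in this group were cystatins and 1 membrane protease. The cysteine protease inhibitors CST1, CST4 and CST3 rose by 3.51, 1.60 and 0.75 on the log2 scale, while CST6, another cystatin, fell by 3.79. CST1 stood at 336 and 469 on the PC-3 arrays and 5835 and 4399 on the TEM4-18 arrays. TMPRSS2, an androgen-regulated serine protease of prostate, rose from 921 and 529 to 2614 and 2222. HPN, the membrane protease hepsin, was not called (514 and 541 in PC-3 and 367 and 379 in TEM4-18).

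Proteases that degrade matrix changed in both directions, with 5 of 21 lower and 4 higher (42.9% called, against 29.4% of all tested genes). PLAT, the tissue plasminogen activator, fell from 23935 and 22046 to 2751 and 2351 (-3.15 ± 0.10, adjusted p = 1.03e-08), and PLAU, urokinase, by 0.63 on the log2 scale. ADAM12, a membrane metalloproteinase, rose from 307 and 497 to 2023 and 1903 (2.18 ± 0.20, adjusted p = 2.84e-05), and MMP16 by 1.06. MMP1 fell from 1189.9 and 1013 to 384 and 159. ADAMTS6, a secreted metalloproteinase, fell from 1022 and 1428 to 93.8 and 150.3, and ADAM9 was not called (20017 and 18708 in PC-3 and 18759 and 19739.9 in TEM4-18). MMP14, MMP9 and MMP2 were not called, and the PC-3 and TEM4-18 ranges of MMP2 overlapped.

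Secreted cytokines and chemokines were lower in TEM4-18. Of 29 tested ligands and receptors, 17 fell and 5 rose, with a median of -1.49. The chemokines that attract neutrophils fell together: CXCL1 from 9564 and 10558 to 1041 and 1085, CXCL6 from 9949.9 and 9577 to 1264 and 1072 and CXCL2 from 1654 and 1829.9 to 333 and 308. CXCL5 and CXCL3 fell by 1.97 and 2.16, and CXCL8 by 5.49 on the log2 scale. These 6 genes lie close together on chromosome 4.

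Interleukins followed. IL6 fell from 1437 and 2056 to 289 and 282, IL15 from 1818 and 1744 to 285 and 244 and IL1B from 2558 and 3139 to 858 and 708. IL1R2, the decoy receptor of interleukin 1, fell from 1774 and 2845 to 19.0 and 59.9, and IL1RN, its antagonist, from 689 and 932 to 18.3 and 32.4. TNFSF15, a ligand of the TNF family, fell by 4.52 on the log2 scale. CXCL16, a chemokine made as a membrane protein, fell from 1544 and 1937 to 45.4 and 117.

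Receptors made up the rises. ACKR3, the scavenging receptor of CXCL12, rose from 341 and 432 to 1509 and 1915 (2.01 ± 0.19, adjusted p = 3.39e-05). IL1RL1, the receptor of interleukin 33, rose from 1791 and 1404 to 7415 and 6281, while IL33 itself fell from 1632 and 962 to 12.2 and 27.4. IL6ST, the signalling chain shared by receptors of the interleukin 6 family, rose by 0.51 on the log2 scale. CXCR4, the signalling receptor of CXCL12, was not called (518 and 574 in PC-3 and 334 and 350.8 in TEM4-18). It was called lower with all its probe sets averaged (-1.60, adjusted p = 0.0035) and without the signal-dependent variance (adjusted p = 0.0279). The brightest member not called was TNFRSF21, a death receptor (18640.5 and 16860.3 in PC-3 and 19894 and 17667 in TEM4-18).

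Of 16 NF-kappaB genes, 6 fell and 1 rose. LCN2, an iron-siderophore carrier induced by NF-kappaB, fell from 20323 and 25840.3 to 160.1 and 206, and TNFAIP3, a feedback inhibitor, by 1.30 on the log2 scale. REL, a subunit of NF-kappaB, and TNIP1, a partner of TNFAIP3, fell by 0.66 and 0.56. REL was not called without either PC-3 array or TEM4-18 array 1 (adjusted p = 0.0643 to 0.165), nor TNIP1 without PC-3 array 2 or TEM4-18 array 2 (adjusted p = 0.102 and 0.095). NFKBIA, the inhibitor I-kappa-B alpha, was the gene called higher (0.49), and it was not called without PC-3 array 1 or TEM4-18 array 2 (adjusted p = 0.0965 and 0.119). The subunits RELA, NFKB1 and RELB were not called. Of these 7 calls 4 were left without PC-3 array 1 and 3 without PC-3 array 2 or TEM4-18 array 2.

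Interferon-stimulated genes fell in number: 23 of 37 tested were lower and 1 was higher, with a median of -0.91. The higher gene, GBP2, was not called without PC-3 array 2 or TEM4-18 array 2 (adjusted p = 0.0702 and 0.0788). IFIT1, an RNA-binding antiviral protein, fell from 7410.3 and 5579 to 1165 and 1312 (-2.33 ± 0.14, adjusted p = 1.58e-06). MX1, a dynamin-like antiviral GTPase, fell from 4330.3 and 3703 to 631 and 765 and OAS1, a synthetase that senses double-stranded RNA, from 1749 and 1379 to 157 and 179. The PC-3 arrays differed for IFI27, at 3990.01 and 2438, and both lay far above TEM4-18, at 68.8 and 61.7. ISG15, the ubiquitin-like modifier, fell by 0.84, and IRF9, a subunit of the interferon-activated complex, by 1.72 on the log2 scale. IFIH1, the RNA sensor MDA5, fell from 1876 and 1372 to 158 and 98.8 and IFIT2 from 4311 and 3412 to 579.8 and 463, while IFITM2, a membrane protein that restricts viral entry, was not called (24618 and 25423 in PC-3 and 27942 and 27117 in TEM4-18).

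Antigen presentation fell in part, with 8 of 22 tested genes lower and 0 higher. The class I heavy chains HLA-B and HLA-C fell by 1.49 and 1.39 and HLA-E by 0.76 on the log2 scale, and B2M, their light chain, fell by 0.28. TAP2, a subunit of the peptide transporter, was not called. ULBP2, a ligand of the natural killer receptor NKG2D, fell from 2381 and 2491 to 1119.6 and 709, and MICB, another such ligand, was not called (7865 and 7638 in PC-3 and 6547 and 6848 in TEM4-18). CD274, the checkpoint ligand PD-L1, fell from 2077 and 1981 to 574 and 796.

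In the EGF receptor family 9 of 11 tested genes fell and 1 rose. TGFA, a ligand of the EGF receptor, fell from 9391 and 9709 to 345 and 217 (-4.88 ± 0.17, adjusted p = 3.09e-08). BTC, also a ligand, fell by 1.43, and the receptors ERBB3, EGFR and ERBB2 by 2.36, 0.79 and 0.71 on the log2 scale. NRG2, a neuregulin, rose from 486 and 418 to 1471 and 1762. EREG, the ligand epiregulin, fell from 385 and 602 to 117 and 73.3, but was not called without PC-3 array 2 or TEM4-18 array 2 (adjusted p = 0.136 and 0.093).

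Among 30 other growth factors and receptors 6 rose and 10 fell. IGFBP2, an IGF-binding protein, fell from 3169 and 2988 to 24.8 and 15.9 (-5.44 ± 0.23, adjusted p = 9.89e-08) and IGFBP6 was not called. KDR had the largest rise of the list. FGFBP1, a carrier of fibroblast growth factors, and MST1R, a receptor tyrosine kinase, fell by 1.50 and 0.91 on the log2 scale. VEGFA and VEGFC, ligands of the VEGF receptors, fell by 0.76 and 0.58 on the log2 scale. The receptor kinases AXL and IGF1R were not called, and AXL was bright in both lines, at 19252 and 21205 on the PC-3 arrays and 20780.4 and 25302 on the TEM4-18 arrays. The brightest member not called was MET, the receptor of hepatocyte growth factor, at 38662 and 36482 on the PC-3 arrays and 36716 and 35734 on the TEM4-18 arrays. The 16 calls of this list became 9 without the signal-dependent variance and 9 without PC-3 array 1.

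Guidance molecules split by member. Of 14 tested ephrins and Eph receptors, 4 rose and 4 fell. Of these 8 calls 5 were left without PC-3 array 1 and 4 without TEM4-18 array 2. EPHA7 rose from 141 and 87.5 to 600.2 and 669.99. EPHA5 rose from 197 and 229 to 456 and 644, but was not called without TEM4-18 array 2 (adjusted p = 0.0823). EPHA1 fell from 1917 and 1880.3 to 165 and 358 and EFNB2, an ephrin ligand, fell from 4413 and 4598 to 1058 and 925. Of 18 semaphorins, plexins, slits and related genes, 6 rose and 4 fell. TENM1, a teneurin, rose from 118 and 67.6 to 1281 and 1729, PLXNA1 rose by 0.84, and SEMA3C, a secreted semaphorin, fell from 7513 and 8626 to 2531 and 2344. SEMA3A, a repulsive semaphorin, and SLIT2, a ligand of ROBO receptors, fell by 1.10 and 1.07 on the log2 scale. EPHB4 (4510.1 and 3675 in PC-3 and 4245 and 5035 in TEM4-18) and SEMA3F (5209 and 4376 in PC-3 and 4371 and 4002 in TEM4-18) were the brightest members of their lists not called.

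In the WNT pathway 6 of 25 tested genes rose and 6 fell. LGR5, a receptor of R-spondins, was at 6.34 and 108 on the PC-3 arrays and 2058 and 2288 on the TEM4-18 arrays (4.53 ± 0.38, adjusted p = 1.48e-05), with 1 PC-3 array far below the added 51.8. LGR6, its relative, fell from 342 and 396 to 19.4 and 34.6, and LGR4 was not called. FZD2, a WNT receptor, was not called either (3131 and 3465 in PC-3 and 2736 and 2799 in TEM4-18). WNT5A, a non-canonical ligand, rose from 5313 and 5819.9 to 11522 and 10602, and the receptor FZD4 from 2619.6 and 1868 to 6023 and 5731. DKK1, a secreted WNT inhibitor, was bright in both lines and fell from 81984 and 79827 to 51761 and 57471, and AXIN2, the usual target of beta-catenin signalling, was not called (608 and 619.8 in PC-3 and 742 and 736 in TEM4-18). RNF43, which removes WNT receptors, fell by 1.86.

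The TGF-beta and BMP list held 9 rises and 9 falls among 30 tested genes. TGFB2 fell from 6113 and 6781 to 1595 and 1177, INHBA, an activin subunit, from 10032 and 10447 to 2913 and 3034, and FST, the activin inhibitor follistatin, from 37926 and 37866 to 6346 and 8219. LTBP1, which stores latent TGF-beta in the matrix, rose from 8466 and 9303 to 27348 and 24509.7 (1.54 ± 0.09, adjusted p = 9.23e-07), and INHBB rose by 0.90 on the log2 scale. The receptors TGFBR2 and BMPR2 rose by 0.44 and 0.76. GDF15, a stress-induced member of the family, fell by 3.04, and SMAD7, a feedback target of TGF-beta, was not called. PMEPA1, another feedback target, fell from 3356 and 6097 to 909.9 and 807, and ID1, a target of BMP signalling, was not called (14078 and 21617 in PC-3 and 20434 and 26305 in TEM4-18), though it was called higher without PC-3 array 2 (0.72, adjusted p = 0.031).

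MAPK feedback and immediate early genes were called 13 times among 20, 5 higher and 8 lower. SPRY4, a feedback inhibitor of receptor tyrosine kinases, rose from 3251 and 2848 to 13707 and 10429.5, and DUSP5, a nuclear ERK phosphatase, from 7478 and 5947 to 17837 and 14982. ATF3, a stress-induced factor, fell from 3182 and 3453 to 252 and 176 and DUSP1 from 4503 and 6039.5 to 1648 and 1456. JUN rose by 0.98 while JUNB fell by 1.29 on the log2 scale. IER3, an immediate early gene, fell from 45177 and 45501 to 17267 and 13759. FOSL1, the AP-1 subunit Fra-1, was bright in both lines and not called.

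Enzymes that metabolise aldehydes, steroids, drugs and eicosanoids were lower in 16 and higher in 3 of 24 cases. CYP1B1, which oxidises estrogens and polycyclic compounds, fell from 1453 and 2083 to 5.03 and 33.4 (-4.69 ± 0.30, adjusted p = 1.98e-06). PTGS2, the inducible cyclooxygenase, fell from 928 and 1703 to 20.5 and 21.5, and HPGD, which degrades prostaglandins, from 11138 and 8273 to 2269.99 and 1306. AKR1C3, which makes testosterone from androstenedione, fell from 2321 and 1911 to 300.4 and 284. HSD17B2, which works in the opposite direction, rose from 586 and 407 to 5096 and 4132 (3.10 ± 0.18, adjusted p = 9.41e-07). SULT1A1, a sulfotransferase of phenols, was the brightest member not called (1671 and 1603 in PC-3 and 1400.05 and 1234 in TEM4-18).

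Of 18 calcium-binding S100 proteins and annexins, 9 fell and 0 rose. S100P fell from 2765 and 3100.1 to 28.8 and 32.2, S100A14 from 9071 and 6983 to 188 and 254 and S100A9 from 4559 and 4586 to 178 and 8.61. S100A4, often used as a mesenchymal marker, was not higher in TEM4-18 but lower, by 0.64 on the log2 scale. S100A2, a member of basal epithelia, fell from 28449 and 23634 to 5971 and 5453. ANXA1 and ANXA2 were not called.

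Of 28 glycolysis and hypoxia genes, 9 fell and 1 rose, with a median of -0.16. ADM, adrenomedullin, fell from 3149 and 3972 to 720.4 and 712, EPAS1, the hypoxia-inducible factor 2 alpha, from 9694 and 10137 to 2588 and 3022, and SLC2A1, the glucose transporter GLUT1, from 2771 and 2923 to 1061 and 809.5. LDHA and PKM were not called. NDRG1, a stress and hypoxia response gene, fell from 16652 and 13912 to 5578 and 4269.9. Of 24 sterol and fatty acid genes, 10 fell and 1 rose. HMGCS1, an early enzyme of cholesterol synthesis, fell by 1.34 and SREBF1 by 1.73 on the log2 scale. SREBF1 was not called without the signal-dependent variance (limma adjusted p = 0.0546). SC5D, a late enzyme of the pathway, fell by 0.92 and STARD4, a sterol carrier, rose by 0.81. ACLY, which makes cytosolic acetyl-CoA, was not called (17278 and 16528 in PC-3 and 17249.8 and 17227 in TEM4-18). STARD4 was not called without PC-3 array 2 or TEM4-18 array 1 (adjusted p = 0.125 and 0.138), and 4 calls were left in this list without the signal-dependent variance and 7 without TEM4-18 array 1.

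Of 34 proliferation genes, 8 rose and 4 fell, with a median near 0. CDK6 rose by 0.75 on the log2 scale and TYMS, thymidylate synthase, by 0.40, while CCNE1, cyclin E, fell by 1.09. The CDK inhibitor CDKN1A fell by 0.69, but was not called without PC-3 array 2 or TEM4-18 array 1 (adjusted p = 0.0899 and 0.0617). CDKN2B, another CDK inhibitor, rose by 1.03, but was not called without TEM4-18 array 1 (adjusted p = 0.0565). The 12 calls became 2 without the signal-dependent variance and 7 without TEM4-18 array 2. MKI67, the usual proliferation marker, was at 6983 and 7492 on the PC-3 arrays and 7462 and 7487 on the TEM4-18 arrays and was not called. CDK1, the mitotic kinase, was the brightest member not called (35049.9 and 31811 in PC-3 and 35087 and 45932 in TEM4-18), though it was called higher without TEM4-18 array 1 (0.46, adjusted p = 0.0389).

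Of 12 prostate lineage and neuroendocrine genes, 4 rose and 1 fell. HOXB13, a prostate homeobox factor, rose from 7629.7 and 5895 to 11073 and 10583 and ENO2, neuron-specific enolase, from 2603 and 2645 to 3813 and 3735. UCHL1, another neuroendocrine marker, fell from 359.7 and 359 to 59.99 and 57.5. STEAP1 and STEAP2 were not called. Of 4 tested cancer-testis genes 1 was called, MAGEA6, lower (523 and 475 in PC-3 and 118 and 122 in TEM4-18), and MAGED1 was not (23869.8 and 23146 in PC-3 and 26066 and 24678 in TEM4-18).

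The 20 largest rises among called genes had few members in the lists above. FAM107A, an actin-regulating gene, stood at 14.9 and 185 on the PC-3 arrays and 1905 and 1843 on the TEM4-18 arrays. GABBR2, a subunit of the GABA-B receptor, rose from 1532 and 1526 to 17089 and 15990.4 (3.39 ± 0.09, adjusted p = 2.93e-09), and SYT16, a member of the synaptotagmin family, from 2130.1 and 1765 to 15982 and 17076 (3.06 ± 0.11, adjusted p = 4.80e-08). RBP4, the plasma carrier of retinol, rose from 1149.7 and 1338 to 9179 and 8387. CLEC2B, a C-type lectin, rose from 154 and 177 to 3042 and 2871.

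Others of the 20 have roles in neurons or signalling. CNIH3, an auxiliary subunit of AMPA receptors, rose from 566 and 414 to 3424 and 3322, PDE3A, a cyclic nucleotide phosphodiesterase, from 109.6 and 43.8 to 1184 and 692, and GLIS3, a Kruppel-like zinc-finger factor, from 596 and 874 to 4802 and 4974. AK5, an adenylate kinase of brain, rose by 2.55, SPOCK3, a testican proteoglycan, by 2.54, and DGKG, a diacylglycerol kinase, by 2.71 on the log2 scale. PELI2, a ubiquitin ligase of Toll-like receptor signalling, rose by 3.31, C14orf39 by 3.07 and SLC26A5-AS1 by 3.26, the last from TEM4-18 arrays that differed, at 7197 and 3840.1. Of the 20, 5 lie in stretches of neighbouring genes that rose together.

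Among the 20 largest falls were several genes outside the lists. DNAJC15, a mitochondrial co-chaperone, fell from 6027 and 6952 to 6.42 and 9.001. EPPK1, the keratin-binding epiplakin, fell from 5568 and 5735 to 8.61 and 50.7, MPZL2, an epithelial adhesion molecule, from 4914 and 4857 to 58.9 and 5.54, and PRRG4, a membrane protein with a Gla domain, from 13018 and 11150.3 to 289 and 179.8. VGLL1, a partner of TEAD factors, fell from 2184 and 2615 to 10.4 and 9.73, the placental phosphatase ALPP from 2347 and 2335 to 13.4 and 10.1 and the long non-coding RNA LNCAROD from 9951 and 9468 to 228 and 183. C1orf116 fell by 5.63 on the log2 scale.

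Some genes went from a clear signal to the bottom of the scale. A total of 28 genes had signals above 520.1, the 60th percentile, on both PC-3 arrays and below 51.8 on both TEM4-18 arrays. The reverse, above 520.1 on both TEM4-18 arrays and below 51.8 on both PC-3 arrays, held for 0 genes. The counts depend on the limits: with the lower limit at 177.8, the 40th percentile, they were 118 and 7, and with the upper limit there they were 68 and 15. Leaving out 1 array gave 32 to 57 for the first count, with 57 without TEM4-18 array 1 and 47 without TEM4-18 array 2, and 0 to 3 for the second.

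Besides genes already named, the 28 included MACC1, a regulator of the receptor of hepatocyte growth factor (2458 and 2267 in PC-3 and 37.2 and 6.27 in TEM4-18), and GUCY1A1, a subunit of the nitric oxide receptor guanylate cyclase (1980.2 and 1452 in PC-3 and 38.6 and 17.5 in TEM4-18). HOOK1, a linker of vesicles to microtubules, was at 2134 and 2103 on the PC-3 arrays and 8.34 and 13.3 on the TEM4-18 arrays. AQP3, a channel for water and glycerol, was at 1275 and 1837 on the PC-3 arrays and 32.6 and 34.0 on the TEM4-18 arrays. KDF1, a regulator of keratinocyte differentiation, was at 1022 and 1049.7 in PC-3 and 31.4 and 7.67 in TEM4-18. COBL, an actin nucleator, was at 1321 and 1159 in PC-3 and 51.7 and 51.3 in TEM4-18. On the TEM2-5 arrays 0 of the 28 genes were below 51.8 on both arrays and 8 were above 520.1 on both.

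Probe sets of 1 gene sometimes disagreed. Of 6920 genes with at least 2 tested probe sets, 2452 were called at their brightest one, and for 744 of these every probe set had the same call. In 184 genes, 1 probe set was called higher and another lower. The count was 56 without the signal-dependent variance, 121 without the filter, 103 and 108 without PC-3 array 1 and array 2 and 91 and 88 without TEM4-18 array 1 and array 2.

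In CD44, of 12 tested probe sets, 7 were called lower and 1 higher. The higher one, its brightest probe set, 212063_at, rose from 21518 and 22906 to 29482 and 30447, whereas 229221_at fell from 1765 and 2219 to 352 and 108. EPB41L5, a polarity protein, rose at 225855_at (log2 fold change 0.52) and fell at 229292_at (-3.16). ESYT2, a membrane-contact protein, rose at 224698_at (0.83) and fell at 1555829_at (-2.62). AHNAK, SAR1B, TGOLN2, HSPA4, CCDC50, NEDD4L and SLC11A2 complete the 10 genes with the widest split. SAR1B, a GTPase of vesicle budding, rose at 230397_at (1.81) and fell at 1554482_a_at (-0.74), and NEDD4L, a ubiquitin ligase of membrane channels, rose at 226974_at (1.53) and fell at 212445_s_at (-0.57). At their brightest probe sets HSPA4 was not called without either PC-3 array or TEM4-18 array 1 (adjusted p = 0.0972 to 0.3), CCDC50 without PC-3 array 1 or either TEM4-18 array (0.0706 to 0.124) and SLC11A2 without either PC-3 array or TEM4-18 array 1 (0.0559 to 0.07). Which transcripts these probe sets report was not given with the values.

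The differences were not spread evenly over the genome. Tested genes were placed in their RefSeq order, and windows of 15 neighbours with at least 10 called in 1 direction were joined into stretches, a limit set with the counts in view. This gave 4 stretches of higher and 8 of lower genes. Because stretches were chosen by their calls, a larger share inside than on the rest of a chromosome follows from that rule. The shares below describe the stretches and do not test them. The positions are gene orders, and no coordinates were used.

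The longest ran on chromosome 14 from MAP4K5 to SRSF5, where 81 of 108 genes (75.0%) were higher, with a median log2 fold change of 0.77. On the rest of the chromosome 11.9% of genes were higher. FERMT2, the integrin activator kindlin-2, rose from 7781 and 8594 to 27715 and 30016, MAX, the partner of MYC, from 12110.00 and 10368 to 30786 and 30798, and TXNDC16 from 2622 and 2299.6 to 8530.5 and 9892. FUT8, PALS1, GNG2, SYT16, PELI2 and C14orf39, described above, all lie here. Exceptions in the same stretch were TMEM30B, a flippase subunit, at 9936 and 9118 in PC-3 and 2104 and 2226 in TEM4-18, and ATL1, a GTPase of the endoplasmic reticulum, at 1388 and 1332 in PC-3 and 408 and 381 in TEM4-18. HIF1A, inside the stretch, was not called.

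The lower stretch with most genes lay on chromosome 17, from ZNF18 to LINC02693. There 46 of 67 genes (68.7%) were lower and 1 higher, with a median of -0.94, against 14.1% lower on the rest of the chromosome. MAP2K4, a kinase that activates JNK and p38, fell from 6269 and 6236 to 2106 and 2556 (-1.41 ± 0.13, adjusted p = 2.91e-05). FLII, an actin-binding protein, fell from 19572 and 25057 to 7114 and 7472, and ELAC2, a tRNA-processing enzyme linked to prostate cancer, from 9410.2 and 10022 to 3362 and 4468. HS3ST3A1, a heparan sulfate sulfotransferase, fell most, by 5.06 on the log2 scale, and ALDH3A1, ALDH3A2 and SREBF1 of the metabolic lists lie in the same stretch. The last 15-gene window of it, from TVP23B on, had 14 of 15 genes lower.

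Other stretches were shorter. On chromosome 3, 34 of 51 genes from TBL1XR1 to DNAJB11 were higher, among them B3GNT5, ETV5, GNB4 (3730.01 and 4672 in PC-3 and 14074 and 13954 in TEM4-18) and DGKG, and 15 of 21 from PCYT1A to FYTTD1. On chromosome 14 a further 16 of 22 were higher from DTD2 to MIPOL1, and 19 of 29 were lower from PNMA1 to TTLL5 and 21 of 31 from PPP2R5C to ZBTB42. The chemokine cluster on chromosome 4, from RASSF6 to PARM1, had 10 of 13 genes lower, with a median of -1.97, and on the same chromosome 11 of 16 were lower from MND1 to PPID. On chromosome 7, 12 of 18 genes from COXFA4 to GIRGL were lower, among them AGR2, a secretory protein disulfide isomerase (18778 and 12155 in PC-3 and 1837 and 1085 in TEM4-18), although TWIST1 in the same stretch was higher. On chromosome 8, 13 of 19 were lower from PCMTD1 to NSMAF and 10 of 14 from EXOSC4 to SLC39A4.

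Without the signal-dependent variance the counts were 20 of 51 for TBL1XR1 to DNAJB11, 11 of 31 for PPP2R5C to ZBTB42 and 6 of 14 for EXOSC4 to SLC39A4. Without PC-3 array 2 they were 6 of 16 for MND1 to PPID and 6 of 14 for EXOSC4 to SLC39A4, without TEM4-18 array 1 they were 7 of 16 for MND1 to PPID, and without TEM4-18 array 2 they were 12 of 29 for PNMA1 to TTLL5. Several genes named only as ends of a stretch, such as MAP4K5 and EXOSC4, were themselves not called when an array was left out. DNA copy number was not analysed here. TEM2-5, against the same PC-3 arrays, had 44 lower genes with a median of -0.81 in the chromosome 17 stretch and 66 higher genes with a median of 0.52 in the longest chromosome 14 stretch. In other stretches it had fewer calls: 7 against 21 in TEM4-18 from PPP2R5C to ZBTB42, 5 against 19 from PNMA1 to TTLL5, 8 against 16 from DTD2 to MIPOL1, 5 against 12 from COXFA4 to GIRGL and 5 against 11 from MND1 to PPID. From TBL1XR1 to DNAJB11 it had 21 against 34, from PCYT1A to FYTTD1 13 against 15, from PCMTD1 to NSMAF 9 against 13, from EXOSC4 to SLC39A4 8 against 10 and from RASSF6 to PARM1 8 against 10. The stretches were picked by TEM4-18 calls, and over all genes TEM2-5 also had fewer calls (19.1% against 29.4%). Between TEM4-18 and TEM2-5 themselves, 27 of 108 genes were called from MAP4K5 to SRSF5 and 5 of 18 from COXFA4 to GIRGL. From RASSF6 to PARM1 5 of 13 were called, from PPP2R5C to ZBTB42 4 of 31 and from PNMA1 to TTLL5 3 of 29. In each other stretch 0 to 2 genes were called.

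**Figure D5:**
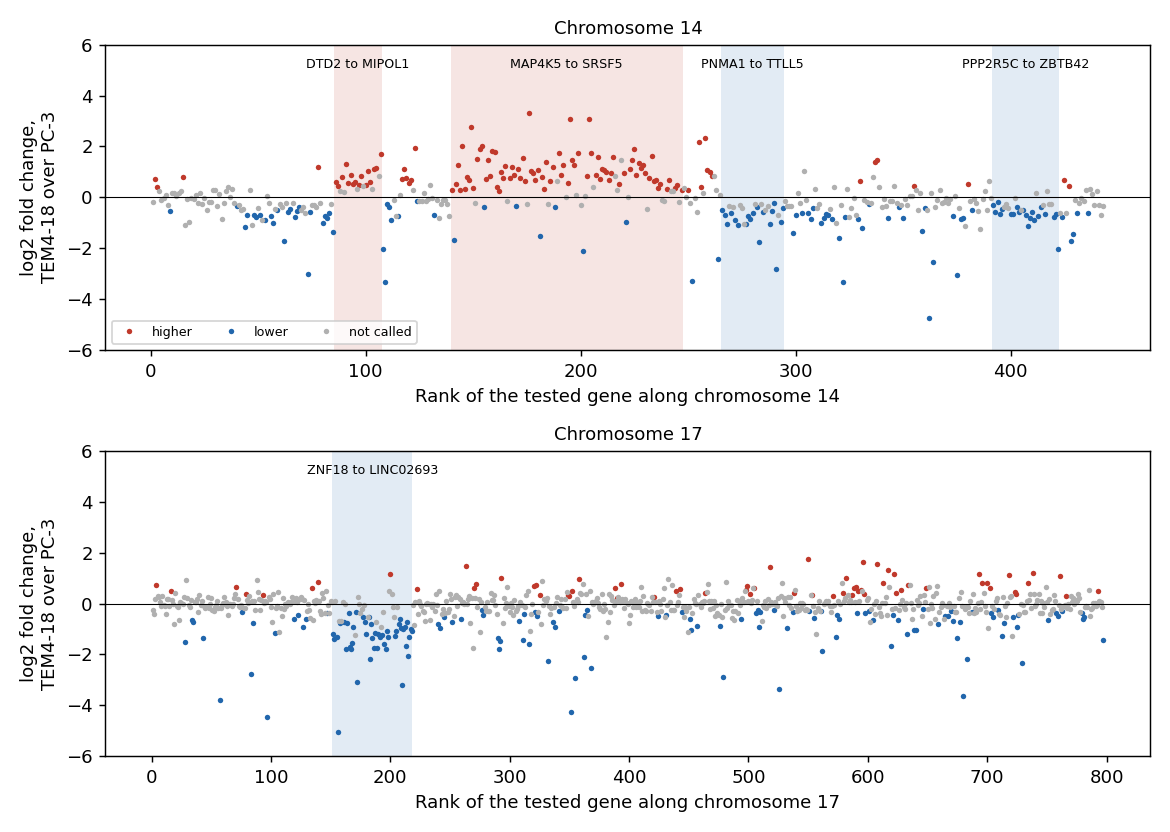
log2 fold change of TEM4-18 over PC-3 (vertical axis) for tested genes in their order on chromosome 14 and chromosome 17 (horizontal axis, rank of the gene), with each point a gene coloured by its call and shaded bands marking the stretches named. On chromosome 14, 81 of 108 genes from MAP4K5 to SRSF5 lie above 0 and are called, and on chromosome 17, 46 of 67 genes from ZNF18 to LINC02693 are called below 0.

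The last comparison asked where TEM4-18 differed from the other isolate. Of the same 13558 genes, 375 (2.77%) were called between TEM4-18 and TEM2-5, 67 higher (0.494%) and 308 lower (2.27%) in TEM4-18. The count was 201 without the filter, 80 without the signal-dependent variance and 211 without TEM4-18 array 2 and 144 and 172 without TEM2-5 array 1 and array 2. Against PC-3, TEM2-5 had 2596 called genes (19.1%), and both contrasts with PC-3 share the PC-3 arrays.

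Several epithelial genes were much lower in TEM4-18 than in TEM2-5. CDH1 was at 2519.8 and 2479 on the TEM2-5 arrays (difference -4.79 ± 0.17 on the log2 scale, limma adjusted p = 1.21e-07), ESRP1 at 1720.2 and 1803 (-4.51 ± 0.15, adjusted p = 9.14e-08) and EHF at 1817 and 1426 (-4.56 ± 0.21, adjusted p = 1.12e-06). EPCAM, an epithelial surface glycoprotein, was at 2035 and 1726 in TEM4-18 and 10854 and 10398 in TEM2-5. Among genes also called against PC-3, the calcium buffer CALB1 differed most, with 179 and 124 in TEM4-18 and 9899 and 12086 in TEM2-5. For CYP1B1, IL33 and S100A9 the TEM2-5 arrays were at 1070.2 and 1616, 1429 and 508 and 1256 and 1568.

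Some genes that rose against PC-3 were not called between the isolates. ZEB1 was at 6244 and 6594 on the TEM2-5 arrays (difference 0.12 ± 0.10, adjusted p = 0.699), TWIST2 at 1498 and 1444 (0.45 ± 0.15, adjusted p = 0.24) and COL1A1 at 18052 and 21919.9 (0.05 ± 0.12, adjusted p = 0.929). None of the 3 was called, which does not show that they were equal. The 10 largest differences upward were taken among genes also called against PC-3. Genes higher in TEM4-18 than in TEM2-5 included TENM1 (1.63), CLEC2B (1.37), SYT16 (1.28), the fibroblast growth factor homologue FGF13 (1.20) and, outside the 10 largest, ACKR3 (0.88), all as differences on the log2 scale. The 10 largest also held IGFBP5, described next, and CRABP2, a carrier of retinoic acid (0.89), FOXRED2 (0.95), the keratin KRT75 (1.00), GNAZ, a G protein subunit (1.03), and SERTAD4BP (1.07). IGFBP5, an IGF-binding protein, followed another order, at 6151 and 7029 in PC-3 and 4059 and 3964 in TEM4-18 and at 1926 and 1681 in TEM2-5. PDGFRA, a PDGF receptor, was highest in TEM2-5, at 2904 and 2170.3, against 1062 and 889 in PC-3 and 685 and 434 in TEM4-18, and its fall from PC-3 to TEM4-18 was not called without PC-3 array 1 or TEM4-18 array 2 (adjusted p = 0.125 and 0.176).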

How the data were processed

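RNA from 3 cell lines was measured on 6 arrays, 2 per line. The deposited values are linear signal intensities that the authors computed with MAS5, per the submitters' processing notes, in which a version is not given. The 2% trimmed mean of every array was 1500.17 to 1500.18, so the arrays were already scaled alike and were not normalised again. Of 54675 probe sets, 62 are controls; 41091 of the others had a single gene symbol in GEO's platform annotation, 1801 several and 11721 none. Of the single symbols, 54 probe sets had one not found in the RefSeq table (GRCh38.p14), which also gave gene order and promoters. Probe sets with a mean signal above 177.8 (the 40th percentile) were tested with limma 3.58.1 in R 4.3.3 on log2(signal + 51.8), two-sided, with a mean-variance trend. All 6 arrays entered the fit with 3 line means, and p-values were adjusted by Benjamini-Hochberg over 32522 probe sets. A fold change on this scale understates the change of dim genes. Errors are standard errors of the fit with 2 arrays per line. A gene is its brightest tested probe set with 1 symbol.

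On simulated data of 32522 probe sets, 100 were changed by 1 and 100 by 2 on the log2 scale. Of these 40 and 73 were called, with 2 false calls among the unchanged probe sets. In the real comparison 8390 probe sets were called, many more than were changed in the simulation. The adjusted threshold depends on that number, so the recovered shares do not carry over to the real comparison. Deviations of same-numbered arrays correlated at 0.065 to 0.097, and the numbers were not taken as pairs in the main fit. This correlation does not register a shift shared by all probe sets of an array. Median signals were 295.5 to 316.9 on the arrays numbered 1 and 266.9 to 282.3 on those numbered 2. With the number as a block the median residual SD was 0.144 in place of 0.169, and the calls under it are given in the last section.

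The members and the gene lists were chosen with earlier results of these data known. The named genes are, by rule, a fixed set of transition genes, the 4 largest called changes and the brightest uncalled member of each list, the 20 largest rises and falls, the 10 widest probe set splits, genes of the densest windows and the 10 largest differences from TEM2-5 in each direction. These last were taken among genes also called against PC-3. Others were added where a group is described by role. Alternatives changed the pseudocount, the filter, the normalisation, the variance model, the arrays in the fit, the probe sets per gene and the replicate term. The stretches of neighbours, the probe set splits and the background limits were recomputed under settings chosen after seeing the data. 1 group of genes is not reported here.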

Additional observations from a re-analysis of the deposited data

Results flagged for a closer look

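The difference between TEM4-18 and TEM2-5 was tested by limma, and 375 genes were called. Of the genes named here, 117 were among them, 101 lower and 16 higher in TEM4-18 than in TEM2-5. Values in brackets are log2(signal + 51.8) differences, TEM4-18 minus TEM2-5.

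Among genes outside the lists, those lower were CALB1 (-5.77), DNAJC15 (-5.14), IL33 (-3.68), MPZL2 (-3.61), EPPK1 (-3.40), PRRG4 (-3.29), MACC1 (-2.90), VGLL1 (-2.70), GUCY1A1 (-2.66), HS3ST3A1 (-2.59) and HOOK1 (-2.58). Further members were C1orf116 (-2.47), EPCAM (-2.47), ALPP (-2.26), LNCAROD (-2.26), AGR2 (-2.24), AQP3 (-1.68), EPB41L5 (-1.47) and PNMA1 (-0.46).

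Lower junction, keratin and polarity genes were CDH1 (-4.79), CDH3 (-3.16), AP1M2 (-2.63), CLDN7 (-2.19), RAB25 (-2.15), MYH14 (-2.02), LSR (-1.89), CGN (-1.67), OCLN (-1.52), CRB3 (-1.48) and CXADR (-1.39). Further members were DSP (-1.29), JUP (-1.03), CLDN11 (-0.99), SYTL2 (-0.66), KRT8 (-0.46) and CDH11 (-0.37).

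Of the transcription and splicing regulators, the lower ones were EHF (-4.56), ESRP1 (-4.51), GRHL2 (-2.48), RBM47 (-2.44), FOXQ1 (-2.13), OVOL2 (-1.98), MBNL3 (-1.04), ELF3 (-0.93), OVOL1 (-0.92) and KLF4 (-0.50).

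Within the proteases and their inhibitors the lower ones were PI3 (-4.32), ST14 (-3.09), SERPINB5 (-2.59), PLAT (-2.49), SLPI (-2.16), KLK5 (-1.71), CST6 (-1.29), KLK6 (-1.17) and SPINT1 (-1.10).

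The metabolic, calcium-binding, signalling and lineage genes lower in TEM4-18 were CYP1B1 (-4.30), S100A9 (-3.63), S100P (-3.34), AKR1C3 (-2.41), S100A14 (-2.25), ALDH3A1 (-1.99), HPGD (-1.65), MAGEA6 (-1.64), S100A2 (-1.30), ATF3 (-1.28) and EPAS1 (-0.59). Further members were IER3 (-0.52).

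For cytokine, interferon and antigen genes the lower values were LCN2 (-3.64), CXCL8 (-2.85), TNFSF15 (-2.46), IL1RN (-1.97), CXCL16 (-1.92), IFIT2 (-1.48), CXCL5 (-1.42), CXCL6 (-1.37), IFIH1 (-1.31), IL1B (-1.27) and CXCL2 (-1.14). Further members were IL15 (-1.13), OAS1 (-1.08), IFIT1 (-1.01), CXCL1 (-0.81), CD274 (-0.80), HLA-B (-0.76) and HLA-C (-0.73).

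Among growth factor and guidance genes, those lower were TGFA (-3.53), IGFBP2 (-3.10), PDGFRA (-2.10), GDF15 (-1.79), FST (-1.55), EFNB2 (-1.05), INHBA (-0.79), SEMA3F (-0.58) and SLIT2 (-0.56).

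Lower adhesion, matrix and glycan genes were THBS1 (-2.77), CD24 (-2.57), ITGB8 (-1.88), ITGB4 (-1.41), MUC1 (-1.41), COL4A6 (-1.07) and LAMB3 (-0.61).

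Higher in TEM4-18 than in TEM2-5 were TENM1 (1.63), CLEC2B (1.37), SYT16 (1.28), FGF13 (1.20), IGFBP5 (1.13), SERTAD4BP (1.07), GNAZ (1.03), KRT75 (1.00), FOXRED2 (0.95), CRABP2 (0.89), ACKR3 (0.88), RBP4 (0.63), GNG2 (0.49), WNT5A (0.44), FUT8 (0.41) and PALS1 (0.34).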

How the results depend on the processing

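Of 389 named genes, 322 kept their direction and their side of the threshold under every setting that gave them a value. The count of called genes against PC-3 ranged from 2962 to 3715 when 1 array was left out. It was 3406 without the filter, 3975 after quantile normalisation and 3746 with only the PC-3 and TEM4-18 arrays, and 2370 without the mean-variance trend. The number of arrays per line, 2, limits the precision, and signals near 51.8 give only a bound on the fold.

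Without the trend, in which every probe set shares 1 variance prior, 2370 genes and 5404 probe sets were called against PC-3 and 80 genes against TEM2-5. Lists fell to 5 adherens junction, 5 endothelial adhesion, 2 NF-kappaB, 9 other growth factor, 4 Eph, 5 antigen presentation, 6 glycolysis, 4 sterol and 2 proliferation calls. Opposite probe sets fell to 56 genes, and the stretches to 20 (TBL1XR1 to DNAJB11), 11 (PPP2R5C to ZBTB42) and 6 (EXOSC4 to SLC39A4). Without the filter, 201 genes were called against TEM2-5, 4 in the NF-kappaB list, 5 in the Eph list and 121 with opposite probe sets. With the filter at the 60th percentile 0 cancer-testis genes were called by limma. With the low limit at the 40th percentile 118 genes were at background in TEM4-18 only and 7 in PC-3 only, and with the high limit there 68 and 15.

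Leaving out 1 array gave 144 to 359 genes against TEM2-5, and 3 to 6 NF-kappaB, 9 to 16 other growth factor, 4 to 8 Eph, 7 to 12 sterol, 1 to 2 leukocyte marker and 7 to 11 proliferation calls. It gave 88 to 149 genes with opposite probe sets, 6 to 11 lower genes from MND1 to PPID, 6 to 9 from EXOSC4 to SLC39A4 and 12 to 17 from PNMA1 to TTLL5. It gave 32 to 57 genes at background in TEM4-18 only and 0 to 3 in PC-3 only.

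With all probe sets of a gene averaged, 11 of the named genes changed sign: CCDC50 0.99, CD44 -0.68, HSPA4 0.12, ITGB1 0.55, MET 0.27, NEDD4L 0.08, PPID 0.02, SAR1B 0.08, SLC11A2 0.12, SRSF1 0.55 and TGOLN2 -0.09. ITGB1, MET and SRSF1 were then called higher. ANXA2, CCN1, CXCR4, CDH11 and MMP14 became called, at -0.36, -0.45, -1.60, 0.62 and 0.42. AFDN, AHNAK, BMPR2, CAV2, CDK6, COL6A2, HLA-E, LINC02693, MMP16, PDGFRA, PKP1, PLXNA1, ROBO4, SC5D, SRSF5, TNIP1 and TTLL5 lost their call. The cause of the changes in this section was not tested.

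With the replicate number as a block, 4479 genes and 9441 probe sets were called against PC-3 and 547 genes against TEM2-5. The block changed the call of 4 named genes, all of which became called, and no list, stretch or other count by 1.5 times.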
